A study of Mus musculus with 17 samples.

Results

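The genes described here are those of the bile duct lining and of simple epithelium, measured in the liver of mice that carry a knockout of Afp, the gene for alpha-fetoprotein. Of 8 listed genes, 7 had at least 1 probe under their symbol (Krt8, Krt18, Krt7, Krt19, Sox9, Epcam and Cftr), out of 9030 named genes on the array. Spp1 had no probe under its symbol and was not analysed here. The 7 genes were read by 9 probes, with 2 probes each for Sox9 and Epcam and 1 for each of the others. Those probes were 19220 for Krt8, 7495 for Krt18, 6504 for Krt7, 7863 for Krt19, 1509 and 18079 for Sox9, 748 and 13545 for Epcam, and 12081 for Cftr. The genes were listed by name, but with earlier results of these data known.

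Hepatocytes and cholangiocytes, the cells that line the bile ducts, both descend from the hepatoblasts of the fetal liver. Hepatoblasts next to the portal mesenchyme turn on Sox9 and later Krt19 and Krt7 and form the ductal plate, from which the ducts arise. Keratins work as obligate pairs of a type I and a type II chain: Krt8 with Krt18 is the only pair of mature hepatocytes and is kept in duct cells, which add Krt7 and Krt19.

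RNA of single Afp knockout mice, labelled with one dye, was hybridised to 2-colour cDNA arrays together with a pool of wild-type liver RNA, labelled with the other. The adult group held 6 mutant males aged 17 weeks against a pool of 6 wild-type males; 5 of them were measured with the mutant in Cy5 and again with the mutant in Cy3, and animal 5 with the mutant in Cy5 alone, giving 11 arrays. The fetal group held 6 mutant embryos, embryos 1 to 3 male and embryos 4 to 6 female, on 1 array each with the mutant in Cy5, against a pool of 4 wild-type animals that the labels call male on 2 arrays and female on 4. The labels give embryonic day 7.5 for this tissue, which was not checked. The labels write the knockout as AFP1 kO and name no strain or treatment.

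Every value is a log2 ratio of mutant over pool, so 1 unit is a doubling, and the level of a gene in either RNA cannot be read from it. Ductal and hepatocyte RNA were mixed in each sample, so fewer duct cells and less RNA per cell cannot be told apart. The arrays carried 20078 to 20697 values, with medians from -0.11 to 0.09. The targeted gene itself, Afp, lay at -8.40 ± 0.23 in the embryos (SD, n = 6) and at -0.03 ± 0.19 in the adults (n = 6), so the adult ratio did not check the knockout label. Whether the Cy3 arrays were already expressed as mutant over pool, and the row in which each probe stands in the fetal columns, were inferred from the values. Each test set mutants against a pool and so left out the spread between wild-type animals.

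**Figure D1:**
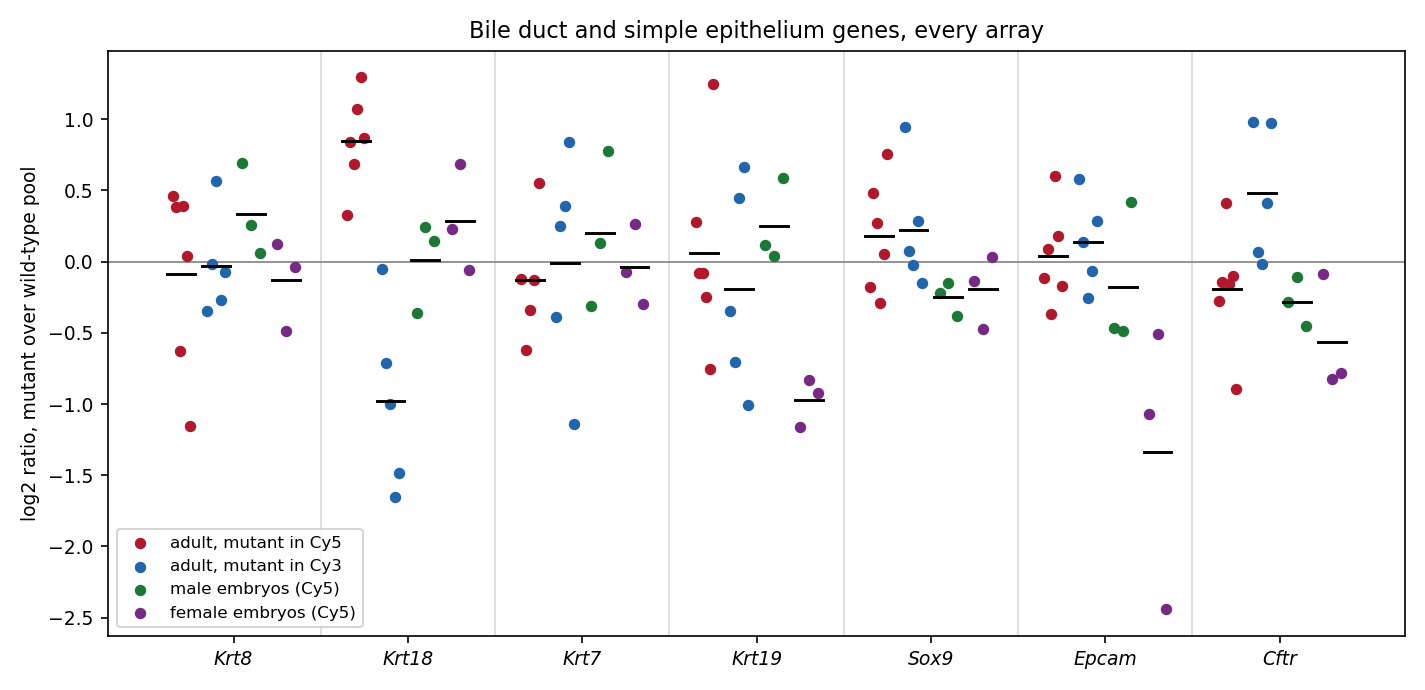
Each point is the log2 ratio of mutant over wild-type pool on 1 array (vertical axis) for the 7 genes (horizontal axis), with Sox9 and Epcam as the mean of their probes; black bars are group means. Adult values are split by the dye of the mutant and embryos by sex. Krt18 is the only gene whose 2 adult dye groups do not overlap, and for Krt19 and Epcam every female embryo lies below every male.

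In the adults, none of the 7 genes differed from the wild-type pool by limma's test over 17039 features, the background being 0 percent (0 features passed; 1321 features, or 7.75 percent, had an unadjusted p under 0.05, and 0 of these were among the 7 genes; over single probes 7.87 percent had, including Sox9 probe 18079). The gene means ran from -0.11 for Krt19 to 0.19 for Sox9, with a median of 0.09 against 0.01 over all features, and 4 lay above 0 and 3 below. With the Cy3 arrays turned in sign the means instead ran from -0.31 for Cftr to 0.94 for Krt18, with a median of -0.02 against -0.09 over all features, and 3 lay above 0 and 4 below. Over all features, 8834 of 17039 lay above 0 as deposited and 6659 with the Cy3 arrays turned. As deposited, the 95% intervals were widest for Krt18, from -0.37 to 0.62, and narrowest for Sox9, from -0.03 to 0.41. In the embryos none of the 7 passed either, where 0.151 percent of 17242 features did, and 3 had an unadjusted p under 0.05, as did 20.8 percent of all features. The fetal means ran from -0.76 for Epcam to 0.15 for Krt18, with a median of -0.22 against 0.00 over all features, 3 above 0 and 4 below.

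**Figure D2:**
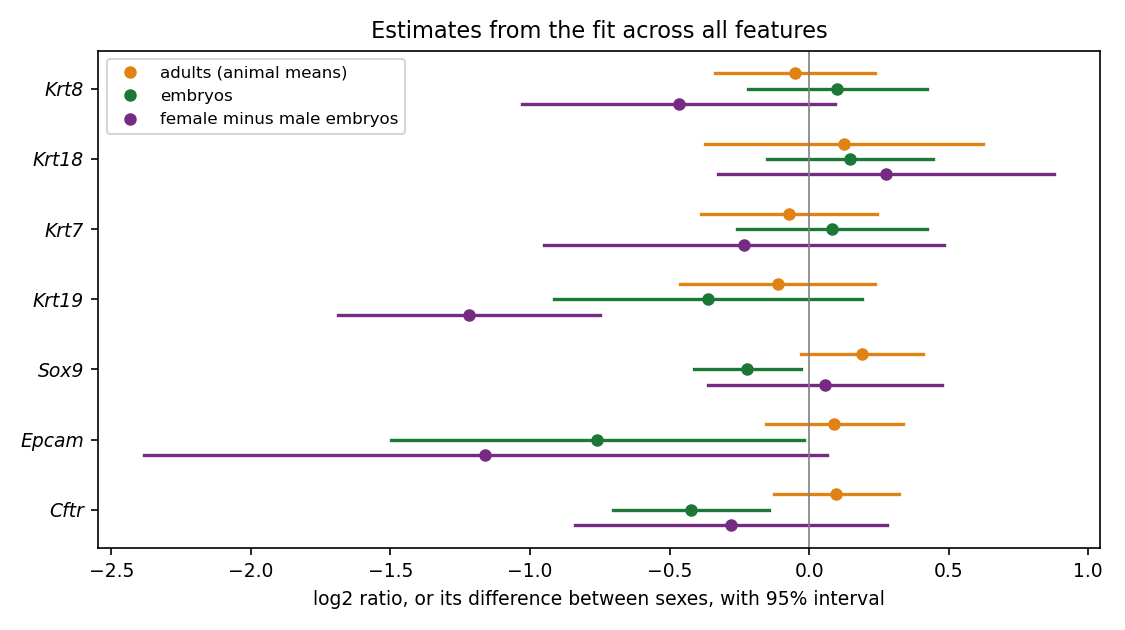
Points are the fitted log2 ratio of mutant over pool in adults (orange, mean over each animal's arrays) and embryos (green), and the female minus male difference of that ratio in embryos (purple), with bars for the 95% interval from limma, for 7 genes on the vertical axis. The fetal intervals of Cftr, Sox9 and Epcam and the sex interval of Krt19 leave out 0, while no adult interval does; none of these differences passed adjustment.

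Krt18, the type I keratin of hepatocytes and ducts, was the only member that depended on the dye layout beyond the test's threshold. With the mutant in Cy5 it read 0.33, 0.84, 0.69, 1.07, 1.29 and 0.87 in adult animals 1 to 6. With the mutant in Cy3 it read -0.05, -0.71, -1.003, -1.65 and -1.48 in animals 1, 2, 3, 4 and 6. All 6 arrays of the first layout thus stood above 0 and all 5 of the second below, and the groups did not overlap. Cy5 arrays stood wholly above Cy3 arrays for 9.64 percent of all features and wholly below for 2.74 percent, and the other 6 genes overlapped.

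The Cy5 mean was 0.85 ± 0.33 (n = 6), a ratio of 1.80 in favour of the mutant, and the Cy3 mean -0.98 ± 0.64 (n = 5). Within animals the 2 layouts differed by 1.74 ± 0.90 (n = 5, 95% interval 0.95 to 2.53, limma's adjusted p = 0.0184), positive in 5 of 5 animals, where 9.09 percent of 16396 features passed the same test and 27.3 percent had an unadjusted p under 0.05 (27.7 percent of single probes); no other member did. That difference divided by 2, called the dye profile here, was 0.87 and larger in size than for 96.1 percent of features. Without animal 4 the difference was 1.49 and did not pass (adjusted p = 0.0645). Averaged over each animal's layouts, Krt18 stood at 0.14, 0.06, -0.16, -0.29, 1.29 and -0.31 in animals 1 to 6, a mean of 0.12 ± 0.60 (adjusted p = 0.867). The high value belonged to animal 5, which had no Cy3 array, and over the other 5 animals the mean was -0.11 (adjusted p = 0.769).

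The direction of the adult Krt18 ratio therefore rests on how the Cy3 arrays are read. Turned in sign, as if they held Cy5 over Cy3, they put Krt18 at 0.94 ± 0.44, above 0 in 6 of 6 animals (adjusted p = 0.0112), where 10.4 percent of features passed. On the Cy5 arrays alone it also passed (adjusted p = 0.0299), as did 6.55 percent of features, and on the Cy3 arrays alone it did not (adjusted p = 0.0761), where 4.19 percent did.

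In the embryos, which share the Cy5 layout, Krt18 read -0.36, 0.24, 0.14, 0.23, 0.69 and -0.06 in embryos 1 to 6. These values lay on both sides of 0, with a mean of 0.15 ± 0.35 (n = 6, adjusted p = 0.539). The adult minus fetal difference on Cy5 arrays was 0.70 (95% interval 0.28 to 1.12) and missed the threshold, with adjusted p = 0.0912, where 0.141 percent of 16314 features passed and 20.2 percent, with Krt18 and Sox9 among the 7 genes, had an unadjusted p under 0.05; without adult animal 1 it was 0.80 and passed (adjusted p = 0.0267), as did 7.59 percent of features in that setting, and with adult means over both layouts it was -0.02. Adults and embryos overlapped for all 7 genes, where adults stood wholly above for 1.14 percent of features and wholly below for 1.15 percent. With the adult dye profile subtracted from each embryo, Krt18 stood at -0.72 ± 0.35 and passed (adjusted p = 0.00627), as did 4930 features, or 30 percent, under that setting, which treats the profile as free of error.

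**Figure D3:**
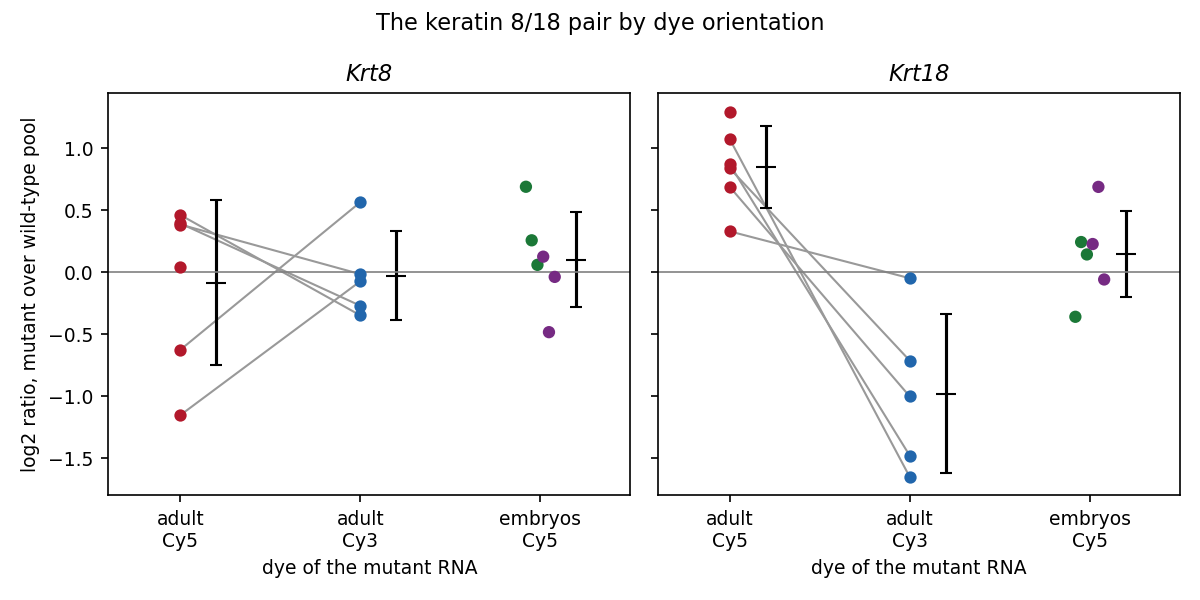
Points are log2 ratios of mutant over pool for Krt8 (left) and Krt18 (right) on adult arrays with the mutant in Cy5, adult arrays with the mutant in Cy3, and embryos (male green, female purple); grey lines join the 2 arrays of an animal, and black bars are mean ± SD. For Krt18 all 5 lines fall from above 0 to below 0, while for Krt8 3 lines fall and 2 rise.

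Krt8, the type II partner of Krt18 and its direct neighbour in the genome (0 protein-coding genes lie between them in RefSeq's GRCm38.p6), showed no such layout effect. With the mutant in Cy5 it read 0.46, 0.38, -0.63, 0.39, 0.04 and -1.15 in animals 1 to 6, and with the mutant in Cy3 -0.35, -0.02, 0.57, -0.27 and -0.07 in animals 1, 2, 3, 4 and 6. The 2 sets overlapped, with means of -0.08 ± 0.66 and -0.03 ± 0.36, and the difference within animals was -0.08 (95% interval -0.92 to 0.76, adjusted p = 0.895). Averaged per animal, Krt8 stood at -0.05 ± 0.28 (n = 6, adjusted p = 0.905), with animal 6 at -0.61 well below the rest.

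In embryos 1 to 6 Krt8 read 0.69, 0.26, 0.06, 0.13, -0.48 and -0.04. The 3 males lay above 0 and the females on both sides, with overlap, and the mean was 0.10 ± 0.38 (adjusted p = 0.702). Although the proteins pair one to one, the ratios of the 2 genes did not run together: over the 12 arrays with the mutant in Cy5, deviations from the mean of each age gave a Pearson r of -0.343, which describes these arrays only.

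The values of hepatocyte markers in the adults also depended on how the Cy3 arrays are read. Of 12 listed genes, 7 were measured, and as deposited all 7 lay below 0 (median -0.45, 0 passed), including Tat, which breaks down tyrosine, at -0.89 ± 0.44. With the Cy3 arrays turned, 4 lay above 0 and 3 below (median 0.10), with Tat at -0.31 ± 0.61. Serpina1b alone of the 7 passed there, at 0.58 ± 0.22 (limma's adjusted p = 0.0142), as did 10.4 percent of features. On Cy5 arrays alone 6 of 7 lay below 0 (median -0.31), with Serpina1b at 0.05 ± 0.53. Tat passed on those arrays at -0.96 ± 0.54 (adjusted p = 0.0349), as did 6.55 percent of features. The median of this list ran from -0.68 to 0.26 over Cy5 arrays, from -1.24 to -0.19 over Cy3 arrays, and from 0.02 to 0.30 over embryos. Its part in the Krt8 and Krt18 values was not tested.

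Krt19, the type I keratin typical of duct cells and absent from mature hepatocytes, spread widely in the adults. It read 0.28, -0.08, -0.08, -0.25, -0.76 and 1.25 with the mutant in Cy5 and -0.35, -0.71, 0.45, 0.67 and -1.01 with the mutant in Cy3 (animals 1, 2, 3, 4 and 6). Animal 6 gave the highest value of one layout and the lowest of the other, so that its mean of 0.12 hid readings more than 2 units apart. Over 6 animals the mean was -0.11 ± 0.39 (95% interval -0.46 to 0.24, adjusted p = 0.825).

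The embryos separated by sex for Krt19. The males read 0.12, 0.04 and 0.59 and the females -1.16, -0.83 and -0.92, so all males were above 0 and all females below. Means were 0.25 ± 0.30 and -0.97 ± 0.17 (n = 3 each), a difference of -1.22 (95% interval -1.69 to -0.75, unadjusted p = 0.000513), but over 17212 features the adjusted p was 0.998, and 0.0116 percent of features passed. An unadjusted p under 0.05 was found for 3.18 percent of features and for Krt19 alone of the 7 genes. Females lay wholly below males for 4.85 percent of features and for 2 of the 7 genes, Krt19 and Epcam, and wholly above for 4.74 percent and for 0 of the 7. For the Epcam gene mean the gap was narrow, with the highest female at -0.51 and the lowest male at -0.49. Sex largely coincided with the pool label. Within the 4 arrays whose pool is called female, with 1 male (embryo 3) and 3 females, the difference was -1.56, a value with no weight of its own since it rests on a single male. With fetal rows read as deposited the sex difference of Krt19 was 0.08. Over all 6 embryos Krt19 averaged -0.36 ± 0.70 (adjusted p = 0.418), a mean that described neither sex.

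Krt7, the type II keratin that joins Krt19 in duct cells, had no value for adult animal 5, which its fit therefore dropped. It read -0.12, -0.62, -0.34, -0.13 and 0.55 with the mutant in Cy5 and -0.39, 0.25, 0.39, 0.84 and -1.14 with the mutant in Cy3 (animals 1, 2, 3, 4 and 6). The layouts overlapped, and the animal means averaged -0.07 ± 0.27 (n = 5, 95% interval -0.39 to 0.24, adjusted p = 0.879). In embryos 1 to 6 Krt7 read -0.31, 0.13, 0.78, -0.07, 0.27 and -0.30, with 3 values on each side of 0 and a mean of 0.08 ± 0.41 (adjusted p = 0.776). Unlike Krt19, the sexes overlapped, and the female minus male difference was -0.23 (95% interval -0.95 to 0.48, adjusted p = 0.998).

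Sox9 encodes the transcription factor that marks the first duct cells of the fetal liver. Its gene mean in embryos 1 to 6 was -0.22, -0.15, -0.38, -0.14, -0.47 and 0.03, below 0 in 5 of 6 (mean -0.22 ± 0.18, 95% interval -0.41 to -0.03, adjusted p = 0.188). The 2 probes did not share this. Probe 1509 read -0.50, -0.37, -0.83, -0.24, -0.27 and -0.37, below 0 in every embryo, with a mean of -0.43 ± 0.22 (adjusted p = 0.0887 over 20697 probes, of which 0.425 percent passed). Probe 18079 read 0.06, 0.07, 0.07, -0.04, -0.68 and 0.43 and averaged -0.01 ± 0.36 (adjusted p = 0.961).

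In the adults the Sox9 animal means were 0.38, 0.28, 0.12, -0.00, 0.06 and 0.30, above 0 in 5 of 6 (mean 0.19 ± 0.15, 95% interval -0.03 to 0.41, adjusted p = 0.652). Its probes averaged 0.19 ± 0.30 and 0.24 ± 0.15. The layouts gave means of 0.18 ± 0.40 (Cy5) and 0.22 ± 0.43 (Cy3), and with the Cy3 arrays turned the adult mean was 0.00 ± 0.37. On Cy5 arrays the Sox9 gene mean stood 0.40 higher in adults than in embryos (95% interval 0.01 to 0.80, adjusted p = 0.240), which did not pass. By probe that difference was 0.66 for probe 1509 (limma's adjusted p = 0.103) and 0.15 for probe 18079 (adjusted p = 0.783).

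Epcam, an adhesion molecule of hepatoblasts and duct cells that mature hepatocytes lack, gave the lowest fetal value of the 7 genes, and that value came from 1 of its 2 probes. Probe 13545 read -1.03, -0.60 and 0.19 in the males and -2.01, -1.85 and -2.44 in the females. Each female lay below each male, and 5 of 6 embryos lay below 0, with a mean of -1.29 ± 0.99 (95% interval -2.05 to -0.53, adjusted p = 0.105). Probe 748 read 0.10, -0.39 and 0.66 in the males and -0.12 and 0.84 in 2 females, with no value in embryo 6. Its sexes overlapped and its mean was 0.22 ± 0.52 (n = 5, adjusted p = 0.547).

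The probe 13545 difference of females minus males was -1.62 (95% interval -2.40 to -0.84, unadjusted p = 0.00178, adjusted p = 0.999), where 0.00968 percent of probes passed and 4.84 percent had females wholly below males (4.68 percent wholly above). For probe 748 that difference was 0.24 (95% interval -0.77 to 1.24). The gene mean of -0.76 ± 0.95 (adjusted p = 0.231) therefore joined 2 probes that disagreed, and in embryo 6 it was probe 13545 alone. Without embryo 6 it was -0.42, and with fetal rows read as deposited 0.06, while Sox9 then stood at 0.05.

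In the adults neither Epcam probe stood apart. Gene means per animal were 0.23, 0.11, -0.31, 0.27, 0.18 and 0.06, averaging 0.09 ± 0.21 (95% interval -0.15 to 0.34, adjusted p = 0.801). Probe 748 averaged 0.24 ± 0.43 and probe 13545 -0.06 ± 0.42.

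**Figure D4:**
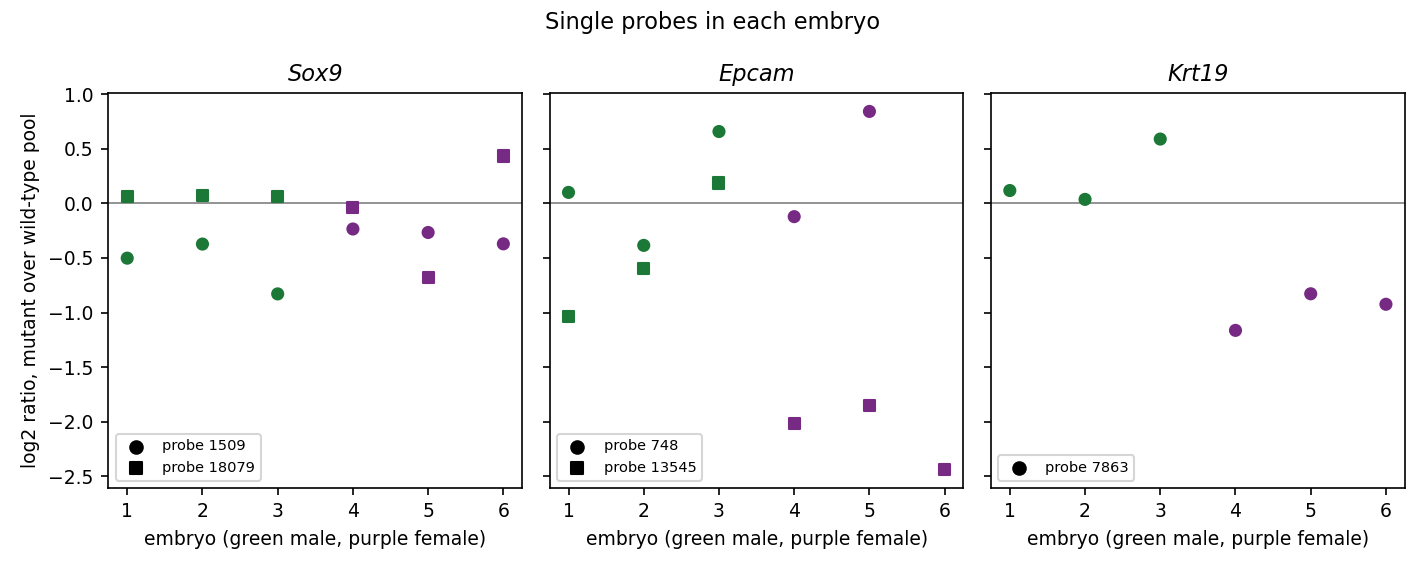
Log2 ratios of mutant over pool (vertical axis) of each probe of Sox9, Epcam and Krt19 in embryos 1 to 6 (horizontal axis), males in green and females in purple, with circles and squares for the 2 probes of a gene. Krt19 and Epcam probe 13545 lie lower in every female than in any male; Epcam probe 748 does not follow probe 13545.

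Cftr, the chloride channel of the duct cell's apical membrane that drives bile bicarbonate secretion, lay below 0 in all 6 embryos. It read -0.29, -0.11, -0.46, -0.09, -0.82 and -0.79, a mean of -0.42 ± 0.32 (95% interval -0.70 to -0.14), which corresponds to a ratio of 1.34 in favour of the pool and did not pass (unadjusted p = 0.00843, adjusted p = 0.126). The sexes overlapped, at -0.28 ± 0.17 in males and -0.56 ± 0.41 in females. The adult dye profile of Cftr, from a layout difference that did not pass its test, was -0.35, and with it subtracted the fetal mean was -0.08 ± 0.32. With the Cy3 arrays read in the other sign the same number would be a mutant over pool ratio, and the 2 readings cannot be told apart here.

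In the adults Cftr read -0.27, -0.14, 0.42, -0.16, -0.10 and -0.89 with the mutant in Cy5 and 0.98, 0.07, -0.02, 0.41 and 0.97 with the mutant in Cy3 (animals 1, 2, 3, 4 and 6). The first set was below 0 in 5 of 6 animals and the second above 0 in 4 of 5, and both ranges overlapped. The layout difference of -0.69 (95% interval -1.48 to 0.10) did not pass (adjusted p = 0.227). Averaged per animal Cftr stood at 0.10 ± 0.17 (adjusted p = 0.772), and with the Cy3 arrays turned it stood at -0.31 ± 0.41 (adjusted p = 0.234).

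Whether the 2 arrays of an adult animal agreed depended on the sign given to the Cy3 array. As deposited, the sign was the same on both arrays in 6 of 35 pairs (7 genes in 5 animals), or 17.1 percent, with none for Krt18 and Cftr, 1 of 5 each for Krt19, Krt7, Krt8 and Sox9, and 2 of 5 for Epcam. Over all features with 5 pairs the share was 38.3 percent. With the Cy3 arrays turned the sign was the same in 29 of 35 pairs, or 82.9 percent, against 61.6 percent over all features. These turned shares follow from the deposited ones and are no separate result. The 7 genes share the same 5 pairs of arrays, so the 35 pairs are not independent. As deposited, the Cy5 and Cy3 means lay on opposite sides of 0 for Krt18, Cftr and Krt19 (0.06 and -0.19), and on the same side for Krt8, Krt7, Sox9 and Epcam.

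Other genes of duct development and function were taken from lists described by their counts. Of 21 symbols listed as regulators of duct fate, 12 were tested in the adults and 11 in the embryos, and none passed in either as deposited (medians 0.05 and 0.05). In the embryos Lgr5, a receptor of stem and progenitor cells, had the smallest p of these, at -0.35 ± 0.21 and below 0 in 6 of 6 (adjusted p = 0.107). Tgfbr2, the type II receptor of TGF-beta, averaged 0.30 ± 0.33 and Hey1, a target of Notch signalling, 0.36 ± 0.43. Among these regulators Hes1, another Notch target, and Notch2, the receptor itself, passed the layout test as Krt18 did, with differences of 1.35 ± 0.41 (adjusted p = 0.0116) and 0.98 ± 0.42 (adjusted p = 0.0402). With the Cy3 arrays turned these are the 2 regulators that passed in the adults, Hes1 at 0.75 ± 0.26 (adjusted p = 0.00736) and Notch2 at 0.55 ± 0.24 (adjusted p = 0.0207). Among all features, 9.09 percent passed the layout test and 10.4 percent passed with the Cy3 arrays turned.

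Of 17 genes for duct transport and secretion, 9 were tested at each age and none passed. The fetal median was -0.19, with 6 of 9 below 0. The adult median was -0.02 on Cy5 arrays, the layout of the embryos, 0.22 on Cy3 arrays and 0.10 over both, or -0.12 with the Cy3 arrays turned. Slc5a1, a sodium-glucose cotransporter, stood at -0.56 ± 0.31 in the embryos (adjusted p = 0.0891) and Slc4a2, the chloride-bicarbonate exchanger that works with Cftr, at -0.32 ± 0.15 (adjusted p = 0.0987), each below 0 in 6 of 6. For Slc4a2 the adult Cy5 arrays read -0.52 ± 0.58 and the adult layout difference was -0.75 ± 0.64 (adjusted p = 0.137). Pkhd1, which encodes fibrocystin of the primary cilium, averaged -0.23 ± 0.26 (adjusted p = 0.252).

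Among 15 other duct and progenitor markers 11 were tested in the adults and 9 in the embryos, and 0 passed as deposited. Prom1, the progenitor marker prominin, averaged 0.42 ± 0.30 in the embryos (adjusted p = 0.118) but its adult layout difference was 1.87 ± 0.25 (adjusted p = 0.00732). In the adults it stood at 0.94 ± 0.11 with the Cy3 arrays turned (adjusted p = 0.00544), 0.85 ± 0.21 on Cy5 arrays alone (adjusted p = 0.0299) and -1.04 ± 0.44 on Cy3 arrays alone (adjusted p = 0.0337). The shares of all features that passed were 9.09 percent for the layout test and 10.4, 6.55 and 4.19 percent for these readings in turn. Of 20 genes for epithelial junctions and plaques 7 were tested at each age and 0 passed; 5 of 7 lay below 0 in the embryos (median -0.08). In the adults 6 of 7 did as deposited (median -0.20) and 5 of 7 with the Cy3 arrays turned (median -0.22), while the median per array ran from -0.40 to -0.05 with the mutant in Cy5 and from -0.25 to 0.21 with the mutant in Cy3. The tight junction gene Cldn3 stood at -0.33 ± 0.20 in the adults (adjusted p = 0.639), and Tjp3, which encodes a tight junction scaffold, at -0.34 ± 0.14 in the embryos (adjusted p = 0.0891).

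Of 17 keratins outside simple epithelium, 12 were tested in the adults and 10 in the embryos, and 0 passed as deposited. Krt1, a keratin of the cornified epidermis, averaged 1.21 ± 0.94 (n = 5) in the adults and Krt2, its relative, -0.45 ± 0.30 (adjusted p = 0.639 each). With the Cy3 arrays turned Krt1 stood at 1.49 ± 0.63 (n = 5, adjusted p = 0.0106) and on Cy5 arrays alone at 1.49 ± 0.64 (adjusted p = 0.0299), passing in both as Krt18 did, while Krt2 stood at -0.31 and -0.61 and did not pass. In those settings 10.4 and 6.55 percent of all features passed. In the embryos the 10 ran from -0.27 to 0.17. Their female minus male differences ran from -0.81 to 0.75, with 4 above 0, 6 below and a median of -0.02. Krt15, a basal keratin, was lower in females by 0.74 (limma's unadjusted p = 0.00795, adjusted p = 0.998). It alone of the 10 had an unadjusted p under 0.05, as did 3.18 percent of all features. Of 11 other intermediate filament genes 10 were tested in the adults (median 0.07) and 9 in the embryos (median 0.00), with 0 passing.

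Enzyme genes of the exocrine pancreas, another ductal organ, lay low in the embryos. Krt19, Sox9, Epcam and Cftr are also expressed in pancreatic ducts or progenitors, and 3 of 9 listed exocrine pancreas genes were measured. All 3 lay below 0 there: Cela2a at -1.30 ± 0.46 and Cpa1 at -1.17 ± 0.43 passed (adjusted p = 0.0467 each), and Ctrb1 at -1.85 ± 0.83 did not (adjusted p = 0.0558). The share of all 17242 features that passed was 0.151 percent. Their median was below 0 in every embryo, from -1.92 to -0.67, against -0.45 to -0.08 on adult Cy5 arrays and -0.06 to 0.38 on adult Cy3 arrays. Unlike Krt19, these genes did not separate the sexes, with female minus male differences of 0.43, 0.00 and 0.29. The 2 measured genes of intestinal epithelium had embryo medians from -1.29 to 0.24. The part of these markers in the fetal values of Cftr, Sox9, Epcam and Krt19 was not tested.

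The other cell type lists held no gene that passed as deposited. In the embryos the medians were 0.09 for stellate and mesenchymal cells (7 genes), 0.05 for endothelium (4), -0.09 for macrophages (5) and -0.23 for erythroid cells (3). In the adults they were -0.02 (7), -0.35 (6), 0.24 (5) and -0.31 (3) as deposited, and -0.10, 0.09, -0.06 and -0.13 with the Cy3 arrays turned, so that the signs for endothelium and macrophages turned with them. The endothelium median ran from -0.14 to 0.39 over Cy5 arrays and from -0.74 to -0.29 over Cy3 arrays. In that list Cdh5 passed on Cy5 arrays alone at -0.81 ± 0.42 (limma's adjusted p = 0.0345), as did 6.55 percent of features. On Cy3 arrays alone it stood at -0.45 ± 0.43 (adjusted p = 0.230). With the Cy3 arrays turned Stab1 passed at 0.42 ± 0.19 (adjusted p = 0.0407), as did 10.4 percent of features, and Cdh5 did not (adjusted p = 0.248).

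The genes most like each member were found with a likeness near that which any gene reaches. Over the 12 arrays with the mutant in Cy5, the gene most like Krt18 in its deviations from the age means was Flad1 (Pearson r = 0.953), followed by Lrpap1 (0.949). For Krt8 they were Akt1 (0.925) and Rab6a (0.907), for Krt19 Pigp (0.885) and Tctex1d2 (0.871), for Sox9 Treh and Klhl23 (0.903 each), for Epcam Hebp2 (0.905) and Rin1 (0.872), and for Cftr Myt1 (0.925) and Zfp462 (0.906). The median best r of a gene among 8051 was 0.927, and these values rest on arrays that share their pools. Krt7 lacked a value and was left out. Between the members themselves r ran from -0.491 (Krt8 with Sox9) to 0.419 (Cftr with Krt8).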

How the data were processed

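The deposited values were log2 ratios of the 2 channels, in 17 columns of 20794 rows; how the authors read, background-corrected, normalized or filtered them is not given in the sources used here. Base 2 was assumed from the reach of the values. Per the labels, Cy3 and Cy5 were attached indirectly. Probe names came from the platform annotation: 12771 probes had 1 gene symbol, 0 had several and 8023 had none, and the Entrez IDs of all 12771 were in the RefSeq table of GRCm38.p6.

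Members and lists were chosen with earlier results of these data known. Fetal values of probe p were read from row p + 11 for probes up to 20000, leaving 794 fetal rows unnamed. Over 121 offsets, probes of one gene correlated best in the fetal mean at 11 rows (Spearman 0.0867, against 0.00673 as deposited), and so did the fetal mean with the adult dye profile (0.375). Embryo 5 gave 0.00355 for the first but 0.459 for the second. Embryo 6 gave 0.075 for the first but 0.0206 for the second. Each of these embryos was thus weakly supported on a single measure. Afp, read with the same offset, lay at -8.11 in embryo 5 and -8.50 in embryo 6. Columns with the mutant in Cy3 were read as mutant over pool without a change of sign: at most 0.0729 percent of their values end in 0, against at least 8.44 percent elsewhere, and their values beyond 10 in size are all negative, while those of all other arrays are all positive. However, the 2 arrays of an animal correlated at a median Spearman of -0.286. Opposite layouts of different animals gave a median of -0.263, so the negative value was not particular to arrays of the same animal. Its cause was not tested.

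Probes of a gene were averaged. limma 3.58.1 (R 4.3.3) tested animal means against 0, and 2 groups against each other, with 4 of 6 values required (2 per sex, and 4 of 5 layout differences) and Benjamini-Hochberg adjustment over all features at 0.05. Values were fitted without further centring. The fits were tested on simulated data. Named genes were the members, Afp, up to 3 genes of smallest p per list and those most like each member. Alternatives were centring, quantile normalization, leaving out large or incomplete values, single probes, probe medians, the sign and row readings, and leaving out each animal. Labels name separate animals as samples.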

Additional observations from a re-analysis of the deposited data

Results flagged for a closer look

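Of 28 sets of 5 or 6 values (7 genes by adult layout, adult animal mean and embryo), 3 held a value far from the others, where chance flags about 1 in 20 sets. All 3 were adult animal means. Krt8 stood at -0.61 in animal 6, with a gap to the next animal of 0.731 of the whole range. Krt18 stood at 1.29 in animal 5, with a gap of 0.721 of the range; that animal had no array with the mutant in Cy3. Epcam stood at -0.31 in animal 3, with a gap of 0.640 of the range.

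Krt18 differed between the dye layouts of the adult arrays by 1.74, past the threshold of the test of that difference (limma's adjusted p = 0.0184). Krt19 lay above 0 in all 3 male embryos and below 0 in all 3 females, a difference of -1.22 that did not pass limma's test over all features (adjusted p = 0.998).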

How the results depend on the processing

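No adult feature passed in the main analysis, but 1764 did with the Cy3 arrays turned in sign, 1106 on Cy5 arrays alone and 699 on Cy3 arrays alone; 1 member, Krt18, passed in each of the first 2 settings. The 26 fetal features became 95 after quantile normalization, 83 without values beyond 10 in size, 61 with a value on every array, 88 for single probes, 43 for probe medians and 4930 with the adult dye profile subtracted, where 1 member, Krt18, passed at -0.72. Leaving out 1 embryo gave 2 to 5 fetal features, and leaving out embryos 5 and 6, or 1 and 2, gave 2 each. The 23 adult minus fetal features became 42 without values beyond 10, 36 with a value on every array, 1579 with fetal rows as deposited and 9 with adult means over both layouts. Leaving out 1 animal gave 4 to 1224 of them (1224 without adult animal 1, 78 without embryo 5) and 0 to 1 members. The 2 features that differed by sex (limma, 547 unadjusted) became 0 under quantile normalization, without values beyond 10 and with a value on every array, 0 to 4 without 1 embryo, 25 on arrays with the pool labelled female and 18 without embryos 5 and 6. The 1491 layout features became 638 to 2407 without 1 animal (2407, 854, 786 and 638 without animals 1, 2, 3 and 4), and the 1 member became 0 to 1. The settings by pool label and without embryos 5 and 6 or 1 and 2 were chosen after seeing the data.

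Replicate numbers in the titles did not pair adults with embryos (correlations of 0.0146, 0.00754 and -0.00255). With the number as a replicate block 10 adult minus fetal features passed, 0 members among them, and Krt18 stood at 0.46. Of the members' single values under alternatives, 12 of 113 adult, 9 of 114 fetal, 5 of 148 adult minus fetal, 12 of 107 sex and 12 of 78 layout values had the opposite sign to the main one; the cause was not tested. The number of arrays limits the precision, and signal over background was not analysed here.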
